A study of Mus musculus with 15 samples.

Results

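*Cask*, *Tspyl2*, *Apba1*, *Lin7a*, *Lin7b* and *Lin7c* encode the proteins that are known to assist TBR1 in the nucleus together with the scaffold that holds CASK at synapses. These 6 genes were taken as a list of names, without a rule on their values but with earlier results of these data known. All 6 were found among the 19475 genes of the deposited table and passed the filter on low values (a mean normalized read count of at least 5), which 16507 genes passed. They were compared in RNA-Seq data of 15 C57BL/6J mouse embryos collected at E16.5. There were 5 embryos of each genotype (3 females and 2 males), namely WT, *Tbr1*+/K228E (called heterozygous here) and *Tbr1*K228E/K228E (called homozygous). The mutant embryos carry a knock-in of the K228E substitution in exon 1 of *Tbr1*, in the T-box domain, in 1 or both copies, and the floxed selection cassette of the targeted allele had been removed by protamine-Cre. The knock-in is in the germ line, so that every cell carries it, and homozygous animals could be studied as embryos only, since none were found when pups were genotyped after birth. The labels name the tissue as brain and the title of the series names the whole brain. The study names mouse brains in its methods and the forebrain in its results. All embryos were processed as bulk tissue.

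TBR1 is a T-box transcription factor of postmitotic excitatory neurons of the deep cortical layers. CASK (calcium/calmodulin-dependent serine protein kinase) is a membrane-associated guanylate kinase that can enter the nucleus, where it binds TBR1 and recruits TSPYL2, also called CINAP or CASK-interacting nucleosome assembly protein, and this complex is known to act at T-box sites of target genes such as *Reln* and *Grin2b*. At the membrane, CASK forms a tripartite complex with APBA1 (also called MINT1 or X11), a PDZ adaptor of the presynaptic terminal, and with 1 of the 3 LIN7 proteins (also called VELI or MALS), which carry an L27 domain that binds CASK and a PDZ domain that binds receptors and channels. CASK thus has a nuclear and a synaptic pool of partners, and the comparison of the genotypes asks whether the RNA of these partners differed where TBR1 carries the K228E substitution.

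*Cask* (ENSMUSG00000031012) lies on the minus strand of chromosome X of GRCm38, from 13517080 to 13851367, and its transcripts cover 9.14 kb of exon. *Tspyl2* (ENSMUSG00000041096) is also X-linked, a compact gene on the minus strand from 152336852 to 152342425. *Apba1* (ENSMUSG00000024897) lies on the plus strand of chromosome 19 from 23758887 to 23949596, *Lin7a* (ENSMUSG00000019906) on the plus strand of chromosome 10 from 107271686 to 107421474, *Lin7b* (ENSMUSG00000003872) on the minus strand of chromosome 7 from 45367891 to 45370583, and *Lin7c* (ENSMUSG00000027162) on the plus strand of chromosome 2 from 109890853 to 109901003. *Lin7c* and *Tbr1* (61802930 to 61814114) are thus on the same chromosome but not neighbors. The library kit did not mark the strand, so that reads of *Gpr34* and *Gpr82*, which lie within *Cask* on the opposite strand, and of *Mtag2*, which overlaps *Lin7b*, cannot be told apart from the host gene where exons overlap.

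The promoter windows of *Tspyl2* and *Lin7b* are shown because the former is the nuclear partner of CASK and the latter is the member whose estimate in the mutants was farthest from WT. The windows are the 250 bases before the RefSeq start on GRCm38.p6, written 5′ to 3′ on the strand of the gene, and capitals mark the core letters GTGTGA of the T-box motif. The *Tspyl2* window is chrX:152342485-152342734 (minus strand, 61.2% G and C), and the *Lin7b* window is chr7:45370565-45370814 (minus strand, 63.6% G and C).
Tspyl2: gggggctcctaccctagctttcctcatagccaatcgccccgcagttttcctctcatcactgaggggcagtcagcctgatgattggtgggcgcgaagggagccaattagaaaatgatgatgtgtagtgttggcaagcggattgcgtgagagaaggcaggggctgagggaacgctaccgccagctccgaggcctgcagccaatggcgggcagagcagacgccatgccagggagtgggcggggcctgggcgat
Lin7b: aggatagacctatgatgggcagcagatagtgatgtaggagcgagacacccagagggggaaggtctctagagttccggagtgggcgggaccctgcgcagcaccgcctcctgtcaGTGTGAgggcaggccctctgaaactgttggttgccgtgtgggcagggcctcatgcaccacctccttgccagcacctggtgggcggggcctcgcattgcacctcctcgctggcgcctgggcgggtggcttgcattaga
The RefSeq table of promoters held windows for 5 of the 6 genes, 6 windows in all, and *Cask* was not matched. The core GTGTGA, read on both strands, was present in 1 of these 6 windows, that of *Lin7b*, and in 12.3% of all 32851 windows of the same length. The longer motif AGGTGTGA, which contains the core, was present in 0 of the 6 windows and in 1.12% of all windows. A match of letters is a description and not a binding site, and a window without them says nothing about TBR1. The window of *Apba1* had the highest G and C content among those of the listed genes at 81.6%, and the median over all windows was 52.4%.

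The 6 genes differed widely in level. Expressed per kb of exon, which allows genes to be compared, the mean over the 15 embryos was 2047 for *Lin7c*, 873 for *Tspyl2*, 826 for *Apba1*, 713 for *Cask*, 457 for *Lin7a* and 129 for *Lin7b*. The lowest *Lin7c* embryo (1825 per kb) was above the highest embryo of every other member, and the highest *Lin7b* embryo (183 per kb) was below the lowest *Lin7a* embryo (377 per kb). With this length *Cask* and *Lin7a* did not overlap either, with a lowest *Cask* value of 627 and a highest *Lin7a* value of 586 per kb. The ranges of *Tspyl2* (741 to 1032 per kb), *Apba1* (612 to 1141 per kb) and *Cask* (627 to 776 per kb) over the embryos overlapped. Within each of the 15 embryos, *Tspyl2* was above *Cask*. *Apba1* was above both in WT replicate 1 and below both in WT replicate 3, so its place in the order is not resolved. With the longest annotated transcript as the length, the order of the 6 means was the same, although *Lin7b* was then at 256 and *Lin7a* at 641. With that length the ranges of *Cask* and *Lin7a* over the embryos did overlap, with a lowest *Cask* value of 685 and a highest *Lin7a* value of 821 per kb. Among the 16507 tested genes, ranked by normalized read count without regard to length, *Lin7c* exceeded 96.94% of genes, *Cask* 94.17% and *Lin7b* 29.79%.

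**Figure D1:**
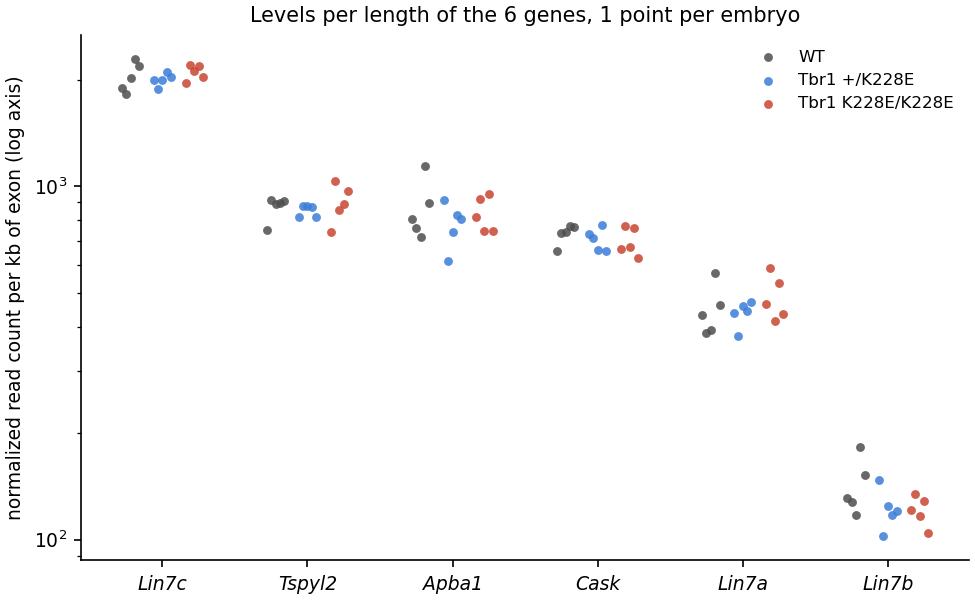
Normalized read count per kb of exon (log axis) for the 6 genes, ordered by their mean, with 1 point per embryo and 1 color per genotype. *Lin7c* lies above and *Lin7b* below all other members in every embryo, whereas the ranges of *Tspyl2*, *Apba1* and *Cask* overlap.

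None of the 6 genes passed the threshold in homozygous compared with WT mice, and the intervals were narrowest for *Lin7c*, *Cask* and *Tspyl2*. *Cask*, the shared scaffold, was estimated at 4.88% below WT (95% confidence interval, 13.8% below to 4.92% above), and *Tspyl2*, the nucleosome assembly protein, at 2.61% above WT (8.39% below to 14.9% above). The call rule was an adjusted p under 0.05 from limma with Benjamini–Hochberg correction over 16507 genes, by which 21 genes (0.127%) were called, and 0 of the 6 members were among them. At an unadjusted p under 0.05 the count was also 0 of 6, against 534 of all genes. In these bulk samples, fewer cells of a type and less RNA per cell cannot be told apart. In two-sided exact permutation tests of 5 against 5 embryos, the smallest p of a member was 0.151, for *Lin7b*, and the smallest that this design allows is 0.00794. The values of homozygous and WT embryos did not overlap for 98 genes (0.594%), and they overlapped for all 6 members.

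The normalized read count of *Cask* was 5983, 6724, 6786, 7041 and 7024 in the WT embryos, in the order of their replicate numbers. It was 6683, 6513, 6018, 7099 and 5986 in the heterozygous embryos. It was 6074, 7062, 6145, 6961 and 5731 in the homozygous embryos. All 3 genotypes covered nearly the same range, with 1 homozygous embryo above the highest and 1 below the lowest WT embryo. The means were 6712 ± 431 (SD, n = 5) in WT, 6460 ± 470 (SD, n = 5) in heterozygous and 6395 ± 586 (SD, n = 5) in homozygous mice. The log2 fold change of *Cask* relative to WT was -0.06 in heterozygous and -0.07 in homozygous mice, differences that were smaller than the spread between embryos (exact permutation p = 0.389 and 0.397).

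*Tspyl2* was measured at 2115, 2571, 2508, 2519 and 2562 in the WT embryos. It was at 2310, 2482, 2479, 2456 and 2301 in the heterozygous embryos. It was at 2089, 2909, 2406, 2511 and 2727 in the homozygous embryos. In WT, 4 embryos lay close together and replicate 1 lay below them, whereas the homozygous embryos were spread on both sides of the WT range. The means were 2455 ± 192 (SD, n = 5), 2406 ± 91.9 (SD, n = 5) and 2528 ± 314 (SD, n = 5), in the same order of genotypes, and the log2 fold changes relative to WT were -0.03 (exact permutation p = 0.706) and 0.04 (exact permutation p = 0.698). Without WT replicate 1 the latter was -0.02.

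*Apba1*, the presynaptic adaptor, had the largest spread between embryos of the 6 genes on the log2 scale. Its values were 5543, 5257, 4927, 7857 and 6151 in WT embryos. In heterozygous embryos they were 6279, 4214, 5097, 5695 and 5539. In homozygous embryos they were 5638, 6317, 5153, 6524 and 5128. WT replicate 4 stood at the top of all 15 embryos and heterozygous replicate 2 at the bottom, and every homozygous embryo lay within the WT range. The log2 fold change relative to WT was -0.14 (95% confidence interval, -0.41 to 0.12) in heterozygous and -0.04 (-0.30 to 0.23) in homozygous mice. Without WT replicate 4 these estimates were -0.036 and 0.07.

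**Figure D2:**
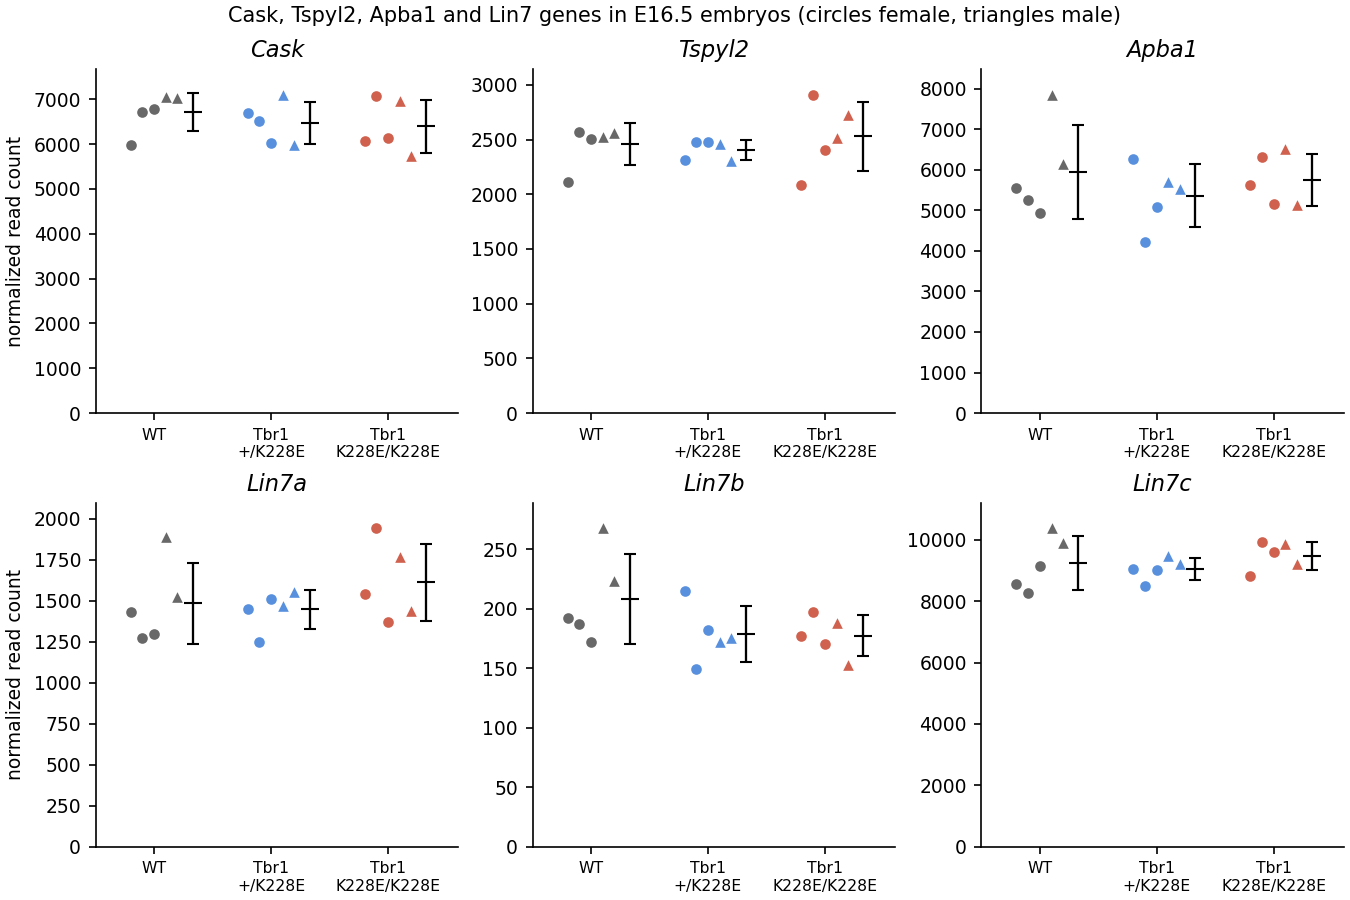
Normalized read count of each of the 6 genes by genotype, with 1 circle per female and 1 triangle per male embryo, beside the mean and SD (n = 5). For every gene the 3 genotypes overlap, and WT replicate 4, a male, is the highest embryo for *Apba1*, *Lin7b* and *Lin7c*.

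The 3 *Lin7* genes, whose products bind CASK through the same type of domain, had estimates of both signs in the homozygous mice. *Lin7a* was at 1433, 1275, 1299, 1886 and 1524 in WT, at 1450, 1248, 1512, 1470 and 1554 in heterozygous, and at 1540, 1941, 1373, 1764 and 1439 in homozygous embryos. Its log2 fold change in homozygous mice was 0.12 (95% confidence interval, -0.11 to 0.36), and 1 of these embryos exceeded all WT embryos. It was 0.21 without WT replicate 4 and 0.052 without homozygous replicate 2. *Lin7c*, the most abundant of the family, was at 8544, 8253, 9151, 10364 and 9894 in WT, at 9033, 8503, 8997, 9473 and 9207 in heterozygous, and at 8819, 9912, 9591, 9856 and 9204 in homozygous embryos. Every mutant embryo lay within the WT range of *Lin7c*, and its log2 fold change in homozygous mice was 0.04 (95% confidence interval, -0.08 to 0.16).

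*Lin7b*, the least abundant member, had the lowest estimates relative to WT of all 6 genes. Its normalized read count was 193, 187, 172, 268 and 224 in WT, 215, 150, 183, 172 and 176 in heterozygous, and 177, 198, 171, 188 and 153 in homozygous embryos. Of the homozygous embryos, 2 were below the lowest WT embryo and the others lay below the 2 highest WT embryos. The log2 fold change was -0.21 (95% confidence interval, -0.48 to 0.06) in heterozygous and -0.22 (-0.49 to 0.05) in homozygous mice, with unadjusted p-values of 0.116 and 0.103 and adjusted p-values of 0.999 and 1.00 from limma with Benjamini–Hochberg correction. Among all tested genes, 84.2% had a smaller absolute log2 fold change in homozygous mice. Without WT replicate 4 the estimate in homozygous mice was -0.13, and that in heterozygous mice was -0.12.

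In heterozygous compared with WT mice, 0 of 6 members were called by limma, as were 0 (0%) of all 16507 genes, and at an unadjusted p under 0.05 the counts were 0 of 6 and 295. All 6 estimates were below WT, from -0.21 for *Lin7b* to -0.03 for *Lin7a*, with a median of -0.04, whereas 51.2% of all genes were below WT with a median of 0.00. Without WT replicate 4, *Lin7a* and *Lin7c* were above WT, at 0.065 and 0.016, as they were with the mean of 9 neuron markers as a covariate, at 0.053 and 0.011. The 6 genes share the same embryos, so this count is a description and not a test. The values did not overlap for 43 genes (0.26%) and for 0 of the 6 members. Between homozygous and heterozygous mice, 13 genes (0.0788%) were called and 544 had an unadjusted p under 0.05, and for the members both counts were 0 of 6. The member estimates of this comparison ran from -0.02 for *Cask* to 0.15 for *Lin7a*, and the values overlapped for all 6, as they did for all but 145 genes (0.878%). The 3 comparisons share their groups of embryos.

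**Figure D3:**
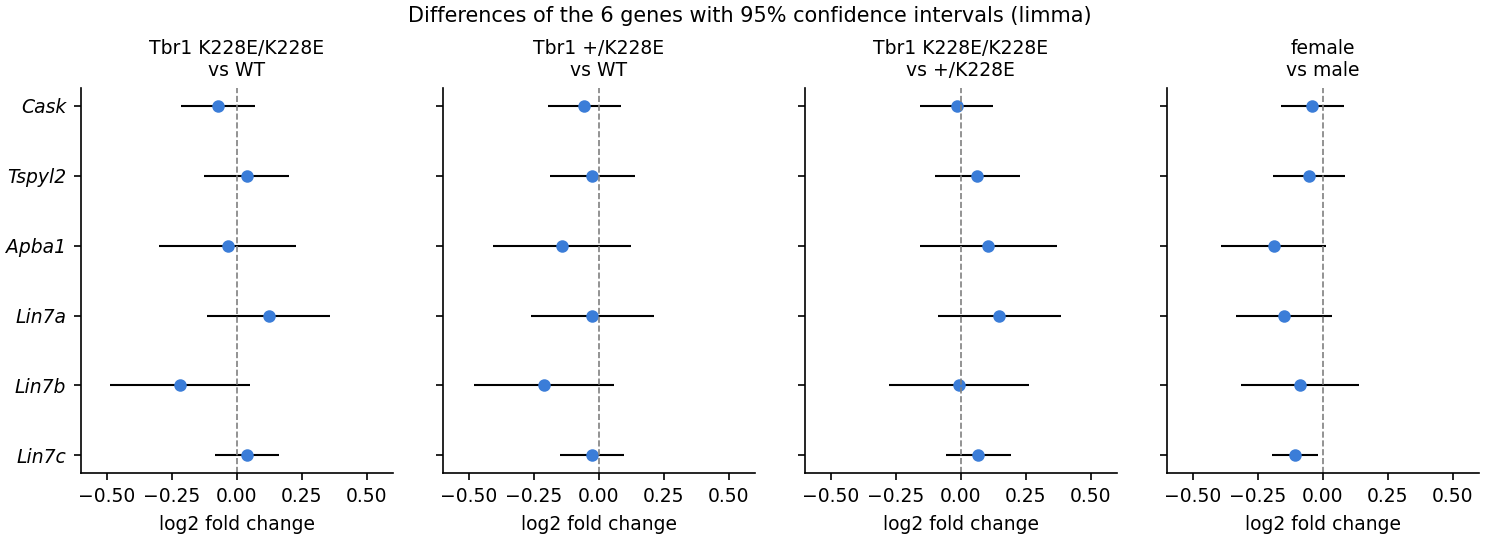
Log2 fold changes of the 6 genes (points) with 95% confidence intervals (lines) from limma for the 3 comparisons of genotypes and for female against male embryos. The interval crosses 0 in all 18 comparisons of genotypes, and in the comparison of the sexes it lies below 0 for *Lin7c*.

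The ratios of *Tbr1* to *Cask* and to *Tspyl2* were higher in homozygous than in WT mice. The study had already reported the rise of *Tbr1* in homozygous mice from these same samples. The log2 fold changes of *Cask* and *Tspyl2* in homozygous mice were only -0.07 and 0.04. The ratios thus mainly restate the rise of *Tbr1*, and their p-values are no evidence about the partners. *Tbr1* itself was called in homozygous mice (log2 fold change, 1.69, adjusted p = 0.00437, limma with Benjamini–Hochberg correction). Within each embryo, the ratio of *Tbr1* to *Cask*, both per kb of exon, was 0.98, 1.02, 1.20, 0.50 and 0.73 in WT. It was 1.18, 2.19, 1.76, 1.58 and 1.39 in heterozygous, and it was 3.16, 1.69, 4.34, 2.56 and 3.34 in homozygous embryos. Every homozygous embryo exceeded every WT embryo, and 1 heterozygous embryo was below the highest WT embryo. The mean ratio was 0.885 ± 0.274 (SD, n = 5), 1.62 ± 0.383 (SD, n = 5) and 3.02 ± 0.983 (SD, n = 5), so that *Tbr1* transcripts were 3.40-fold higher relative to *Cask* in homozygous than in WT mice (two-sided exact permutation test, p = 0.00794, adjusted p = 0.0397 over the 15 tests of ratios and shares). The heterozygous ratio was 1.87-fold that of WT (exact permutation p = 0.0159, adjusted p = 0.0595), which did not pass the correction.

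Relative to *Tspyl2*, *Tbr1* was at 0.85, 0.82, 1.00, 0.43 and 0.62 in WT, at 1.05, 1.77, 1.31, 1.41 and 1.11 in heterozygous, and at 2.84, 1.26, 3.42, 2.18 and 2.16 in homozygous embryos. All embryos of both mutant genotypes exceeded all WT embryos, while homozygous replicate 2 lay within the heterozygous range. The ratio rose 1.83-fold in heterozygous and 3.15-fold in homozygous mice (exact permutation p = 0.00794 and adjusted p = 0.0397 in each case). *Tbr1* itself was not called in heterozygous mice, at a log2 fold change of 0.85 (limma, unadjusted p = 0.00225, adjusted p = 0.999). That adjustment ran across all tested genes, whereas the ratios were corrected over 15 tests only. The call of the heterozygous ratio therefore depends on the smaller set of tests. Between the mutant genotypes, the ratios to *Cask* and *Tspyl2* differed 1.82-fold and 1.72-fold, with adjusted p-values of 0.0595 and 0.068 in the exact permutation test. When 1 embryo was left out, each of the 3 called ratios lost its call in 13 of 15 cases, because 4 against 5 embryos cannot give an exact p below 0.0159 and the correction covers all 15 tests, but none changed direction. *Tbr1* is known to be restricted to fewer cell types than *Cask*. In each genotype, the embryo with the lowest ratios also had the lowest summed value of 7 markers of cortical excitatory neurons. These sums were 16087 in WT replicate 4, 24900 in heterozygous replicate 1 and 18293 in homozygous replicate 2. The embryo with the highest ratios had the highest sum in each genotype. The part of tissue content in the ratios was not tested.

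No difference between the genotypes in how the *Lin7* transcripts were divided passed the correction. Of the summed *Lin7* value per kb of exon, *Lin7c* made up 77.7% ± 1.69 (SD, n = 5) in WT, 78.2% ± 1.06 in heterozygous and 77.6% ± 1.91 in homozygous mice. The share of *Lin7a* was 16.9%, 17.1% and 17.9%, with exact permutation p-values of at least 0.317 in the 3 comparisons. The share of *Lin7b* was 5.36%, 5.47%, 4.64%, 6.01% and 5.46% in the WT embryos and 4.78%, 4.64%, 4.40%, 4.53% and 4.06% in the homozygous embryos. WT replicate 3 lay within the homozygous range, and the other WT embryos were above it. The mean *Lin7b* share of 4.48% ± 0.273 (SD, n = 5) in homozygous mice was 0.91 percentage points below that of WT (exact permutation p = 0.0238, adjusted p = 0.0595), a difference that did not pass. With the longest transcript in place of the union of exons it was 1.50 points lower and passed (adjusted p = 0.0476, exact permutation test). The *Lin7b* share did not pass in the other comparisons with either length. The correction also covered the *Tbr1* ratios, whose small p-values lower the adjusted p of the shares, and the rise of *Tbr1* was known beforehand. A correction over the shares alone was not made, so whether the *Lin7b* share differs is not resolved.

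**Figure D4:**
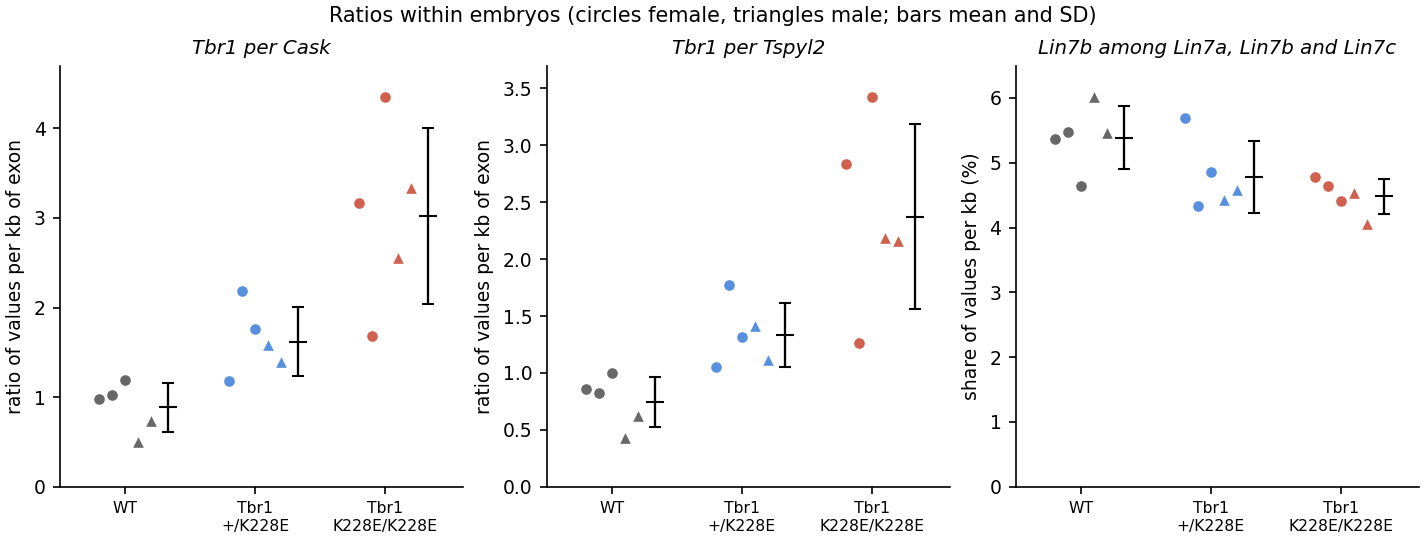
Ratio of *Tbr1* to *Cask* and to *Tspyl2*, and percent share of *Lin7b* among the *Lin7* genes, all from values per kb of exon, by genotype with 1 point per embryo beside the mean and SD (n = 5). All homozygous ratios lie above all WT ratios, whereas the *Lin7b* shares overlap at WT replicate 3.

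The genes around these members were examined in lists of partners and relatives. Of 17 genes listed as binding partners of CASK and its complex, such as neurexins, syndecan and liprin, 0 were called in any of the 3 comparisons. Of all genes, 0.127% were called in homozygous and 0% in heterozygous mice relative to WT, and 0.0788% between the mutants. The median log2 fold change of these 17 listed genes was 0.03 in homozygous and -0.04 in heterozygous mice relative to WT. In the former comparison 11 were higher and 6 lower, and in the latter 1 was higher and 16 were lower, where 51.3% and 51.2% of all genes were lower. The neuron markers ran the same way, with 7 of 9 higher in the former comparison and 7 of 9 lower in the latter, and their part in these counts was not tested. The smallest unadjusted p among these 17 genes was that of *Caskin2* (log2 fold change, -0.15 in homozygous mice, unadjusted p = 0.0388 and adjusted p = 1.00, limma with Benjamini–Hochberg correction). Whether its product binds CASK was not examined. Of 9 paralogs of *Cask* and *Apba1*, 0 were called, and the gene with the smallest p in homozygous mice was *Mpp3*, another membrane-associated guanylate kinase, at 0.08. Of 10 relatives of *Tspyl2* among the nucleosome assembly proteins, 0 were called, and the corresponding gene was *Nap1l4* at 0.06.

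Of the known targets of the nuclear complex, *Reln* was called and *Grin2b* was not. *Reln*, which encodes the secreted glycoprotein reelin, had a log2 fold change of -0.56 in homozygous relative to WT mice (adjusted p = 0.000603) and -0.47 relative to heterozygous mice (adjusted p = 0.00707, limma with Benjamini–Hochberg correction). *Grin2b*, which encodes the GluN2B subunit of the NMDA receptor, was at 0.00 relative to WT (95% confidence interval, -0.24 to 0.25). *Foxp2*, whose product binds TBR1, was at -0.08 (-0.35 to 0.18). Thus 2 of the 4 genes in this list, *Tbr1* and *Reln*, were called in homozygous mice relative to WT, beside 21 (0.127%) of all 16507 genes. In heterozygous mice 0 were called, as were 0 of all genes. The study had already reported both genes as changed in homozygous mice from these same samples, so this count is a description and not a test.

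Because *Cask* and *Tspyl2* are X-linked, the sexes were compared with genotype in the model. Neither gene was called, with a log2 difference (female minus male) of -0.04 (95% confidence interval, -0.16 to 0.08) for *Cask* and -0.05 (-0.19 to 0.08) for *Tspyl2*. Of 612 X-linked genes tested, 5 were called higher in females, namely *Ddx3x*, *Eif2s3x*, *Gm26992*, *Kdm5c* and *Kdm6a*, most of which are known to escape X inactivation. Over all genes 13 (0.0788%) were called and 1822 had an unadjusted p under 0.05, and among the members these counts were 0 and 1 of 6. The 1 member was *Lin7c*, at 8978 ± 530 (SD, n = 9) in females and 9666 ± 456 (SD, n = 6) in males, with a log2 difference of -0.11 (unadjusted p = 0.0197 and adjusted p = 0.41 with limma, exact permutation p = 0.029 within genotypes). All 6 estimates were lower in females, as were those of 50.4% of all genes, and for *Apba1* the difference was -0.41 among WT, -0.13 among heterozygous and -0.03 among homozygous embryos. The test of whether the sex difference depends on the genotype called 0 of 6 members and 0% of all genes, both for homozygous and for heterozygous against WT. At an unadjusted p under 0.05 this test counted 2 of 6 members for the former and 0 of 6 for the latter, beside 1066 and 1106 of all genes. The 2 members were *Lin7b* and *Lin7c*, both at 0.75 after limma and adjustment over all genes (adjusted p). Each genotype had 2 males, and WT replicate 4, the highest WT embryo for 5 of the members, was 1 of them.

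*Apba1* and the *Lin7* genes varied together between embryos of the same genotype. After the mean of each genotype was subtracted from the log2 values, *Apba1* and *Lin7b* had a Pearson r of 0.93 (Spearman's rho, 0.93) over the 15 embryos, *Apba1* and *Lin7a* 0.87, *Lin7a* and *Lin7b* 0.82, and *Apba1* and *Lin7c* 0.72. *Cask* and *Tspyl2*, the nuclear partners, had an r of 0.47, which lay within the range of *Cask* with the other 4 members (0.44 to 0.56). *Tspyl2* had an r of 0.04 with *Apba1*, 0.03 with *Lin7b*, 0.21 with *Lin7a* and 0.38 with *Lin7c*. These correlations are descriptions over embryos whose values were scaled together and whose markers of other tissue differed, and no p is given for them. The residual SD on the log2 scale was 0.10 for *Lin7c*, 0.11 for *Cask*, 0.13 for *Tspyl2*, 0.19 for *Lin7a*, 0.20 for *Lin7b* and 0.22 for *Apba1*, and its median over all genes was 0.15.

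The embryos differed in markers of other brain regions and cell types, and some members moved with them. The summed normalized read count of the Hox genes of the hindbrain and spinal cord (13 of 15 tested) ranged from 4.80 to 3250 in WT, from 0 to 3802 in heterozygous and from 4.08 to 575 in homozygous embryos, and WT replicate 4 had the highest value among WT. The summed value of 9 neuron markers was 231168 to 268072 in WT, 226719 to 257945 in heterozygous and 239963 to 266998 in homozygous embryos. The meningeal fibroblast markers summed to between 465 and 32217 over the embryos of WT alone, and their r with the members lay between -0.43 and 0.06. With the mean of the neuron markers, after centering by genotype, *Apba1* had an r of 0.92, *Lin7b* 0.91, *Lin7a* 0.71, *Lin7c* 0.69, *Cask* 0.38 and *Tspyl2* -0.16. Without the 2 embryos farthest from the median of the neuron markers, the r was 0.82 for *Apba1*, 0.84 for *Lin7b*, 0.47 for *Lin7a*, 0.48 for *Lin7c*, 0.45 for *Cask* and -0.26 for *Tspyl2*. With the 10 markers of cycling cells the r was -0.88 for *Lin7c*, -0.86 for *Lin7a*, -0.84 for *Apba1*, -0.81 for *Lin7b*, -0.64 for *Cask* and -0.44 for *Tspyl2*, and without the 2 farthest embryos it lay between -0.85 for *Lin7c* and -0.25 for *Tspyl2*.

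**Figure D5:**
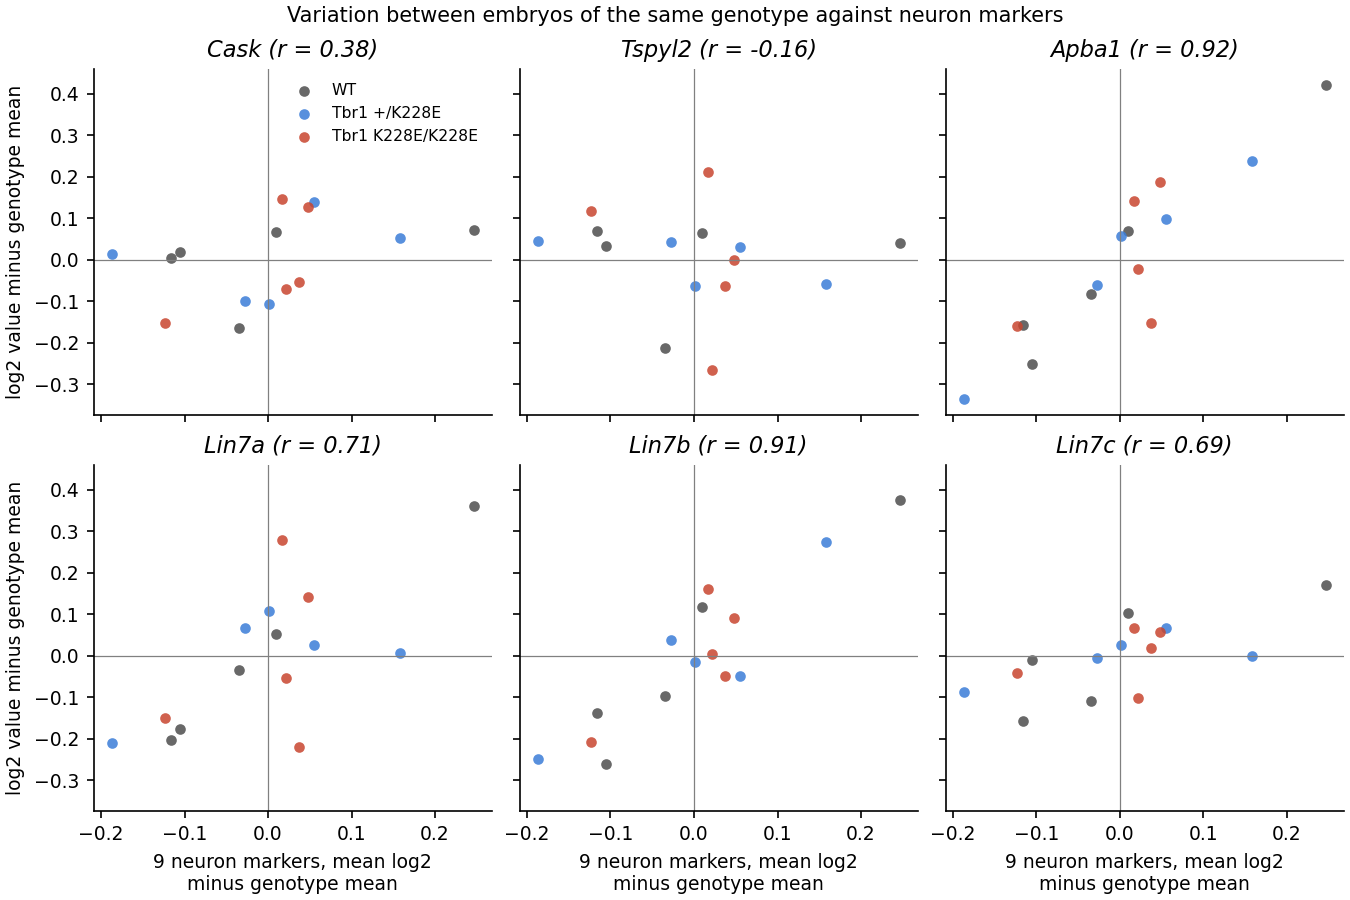
Log2 value of each of the 6 genes minus its genotype mean (vertical axis) against the mean log2 value of 9 neuron markers minus its genotype mean (horizontal axis), with 1 point per embryo, 1 color per genotype and Pearson r over 15 embryos. *Apba1* and *Lin7b* rise along the axis, whereas *Tspyl2* shows no such relation (r = -0.16).

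With the markers of cortical excitatory neurons the r was -0.89 for *Lin7a*, -0.84 for *Apba1*, -0.81 for *Lin7b*, -0.49 for *Lin7c*, -0.24 for *Cask* and -0.12 for *Tspyl2*. Without the 2 embryos farthest from the median of these markers it was -0.75 for *Lin7a*, -0.77 for *Apba1*, -0.67 for *Lin7b* and -0.12 for *Lin7c*, and it turned to 0.12 for *Cask* and 0.31 for *Tspyl2*. The interneuron markers gave a similar r, at -0.83 for *Lin7a*, -0.81 for *Apba1*, -0.78 for *Lin7b*, -0.57 for *Lin7c*, -0.40 for *Cask* and -0.34 for *Tspyl2*. For radial glia markers the r lay between -0.75 for *Lin7c* and -0.38 for *Lin7b*, and for blood markers between -0.69 for *Lin7c* and -0.23 for *Tspyl2*. With the Hox genes the r was 0.64 for *Lin7b* and 0.59 for *Apba1*, and both were at 0.26 without the 2 farthest embryos. Spearman's rho over all 15 embryos was 0.53 for *Lin7b* and 0.61 for *Apba1*. How far this relation rests on those 2 embryos is therefore not resolved. With the Hox mean as a covariate, the log2 fold change of *Lin7b* in homozygous mice was -0.15 and that of *Apba1* was 0.04, and with the mean of the neuron markers they were -0.27 and -0.10. No member was called with either covariate. The part of tissue composition in the estimates was not tested beyond these fits. Of the 12 marker lists, which also covered interneurons, radial glia, meningeal fibroblasts, microglia, endothelium, choroid plexus, blood and sex, none held a called gene in any comparison of genotypes.

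The genes most like each member over the 15 embryos, among 13541 genes with a mean of at least 50, differed in number between the members. *Apba1* was most like *Pcdh9* (r = 0.99), *Cltb* (0.99) and *Prepl* (0.99), and 422 genes had an r above 0.9 with it. *Lin7b* was most like *Map7d2* (0.97), *Sncb* (0.96) and *Pcbd1* (0.96), with 161 such genes. *Lin7c* was most like *Aak1* (0.98), *Cpeb4* (0.96) and *Chl1* (0.96), with 79 such genes, and *Lin7a* was most like *Hdhd5* (0.95), *Btbd3* (0.95) and *Fam169a* (0.94), with 43. *Cask* had 1 gene above that level, *Zfp788* (0.90), followed by *Rsad1* (0.89) and *Plpbp* (0.89), and *Tspyl2* had 1, *Dnajc7* (0.93), followed by *Pxdn* (0.90) and *Kctd21* (0.87).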

How the data were processed

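Genotype, replicate number and sex of the 15 embryos were taken from the labels, which do not name litters, and no embryo was left out. The authors sequenced libraries of the TruSeq RNA Sample Prep Kit v2, quantified transcripts with Salmon 0.11.2 on GRCm38 with correction for GC bias, summed them per gene with tximport and scaled the result by size factors from DESeq2 1.22.2 in R 3.5.3. What the authors deposited is a scaled signal for each gene in each embryo (called normalized read count) that is not whole and could not be turned back into whole reads. The sum per embryo was 30.5 to 31.8 megacounts, which reflects the scaling and not the depth. The depth was not used here.

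The 6 genes and all gene lists were chosen with earlier results of these data known. Linear models of log2(value + 1) were computed by limma 3.58.1 in R 4.3.3, with lmFit and a trended eBayes, over the 15 embryos together. The 16507 genes whose mean reached 5 were tested, and the Benjamini–Hochberg correction was applied across them (threshold 0.05). The pseudocount of 1 understates changes of genes with low values. The sexes were compared with genotype in the model, and their interaction was fitted separately. Single genes, ratios and shares were compared by two-sided exact permutation tests (SciPy 1.17.1), with correction over the 15 ratios and shares. Coordinates and exon lengths came from the GENCODE M21 annotation of GRCm38, to which 19469 of the 19475 genes were matched, and promoter windows from RefSeq on GRCm38.p6. The fit was tested on simulated data.

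The genes named are the 6 members, the genes of the lists that passed the threshold or had the smallest p in homozygous mice, all 4 genes of the list of *Tbr1*, its partner *Foxp2* and its targets, and the 3 genes most like each member. The called X-linked genes and the genes that overlap members were named after their values were seen. The lists were genes named as binding partners of CASK and its complex, paralogs of *Cask* and *Apba1*, relatives of *Tspyl2*, and 12 lists of cell type markers. Results were recomputed with a pseudocount of 0.1 and 10, without the filter and with a minimum mean of 50, after quantile normalization, with sex or the replicate number in the model, from the 2 compared genotypes only, against an empirical null, for other gene lengths and without each embryo in turn. The means of the neuron markers and of the Hox genes were added as covariates after seeing the data. Embryos of 1 genotype had correlations (r) of 0.971 to 0.988, and no 2 columns held the same values.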

Additional observations from a re-analysis of the deposited data

Results flagged for a closer look

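In 1 of 33 groups of 5 embryos that were examined (18 for the values of the 6 genes and 15 for the ratios and shares), 1 embryo stood far from the others. It was WT replicate 1, a female, whose normalized read count of *Tspyl2* of 2115 was the lowest in WT, and its gap to the next embryo was 0.862 of the range of the group (critical value of Dixon's test, 0.71). Chance alone takes about 1 in 20 groups past the critical value. This embryo also had the lowest *Cask* value in WT (5983), which did not stand apart in the same way.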

How the results depend on the processing

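The number of members called was 0 of 6 under every alternative and with every embryo left out, in each comparison for which the alternative was run, as was the number of the 36 partners, paralogs and relatives called between genotypes. The direction of the member estimates in the comparison of the sexes did not change in any of these fits.

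Small estimates changed sign. With quantile normalization, *Lin7b* was at 0.020 in homozygous against heterozygous mice. With the neuron markers as a covariate, *Lin7a* and *Lin7c* were at 0.053 and 0.011 in heterozygous against WT mice, and *Apba1* at -0.070 between the mutants. With the Hox genes as a covariate, *Apba1* was at 0.040 in homozygous and *Lin7a* at 0.023 in heterozygous against WT mice. The cause was not tested. With 1 embryo left out, the estimates that changed sign ranged as follows. Against WT, *Tspyl2* ranged from -0.016 to 0.10 and *Apba1* from -0.098 to 0.070 in homozygous mice, and *Lin7a* from -0.076 to 0.065 and *Lin7c* from -0.066 to 0.016 in heterozygous mice. Between the mutants, *Cask* ranged from -0.053 to 0.022 and *Lin7b* from -0.070 to 0.060. Other estimates kept their sign against WT. In homozygous mice, *Cask* ranged from -0.11 to -0.034, *Lin7a* from 0.052 to 0.21, *Lin7b* from -0.28 to -0.13 and *Lin7c* from 0.00069 to 0.083. In heterozygous mice, *Cask* ranged from -0.097 to -0.029, *Tspyl2* from -0.079 to -0.0087, *Apba1* from -0.20 to -0.036 and *Lin7b* from -0.28 to -0.12.

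With the longest transcript as the length, the log2 ratio of *Tbr1* to *Cask* in heterozygous against WT mice kept its value of 0.90, and its adjusted p moved to 0.0476, because the correction covers all 15 tests. The *Lin7b* share in homozygous against WT mice was -1.50 points, and that of *Lin7c* changed sign to 0.22 points. With 1 embryo left out, the log2 ratio of *Tbr1* to *Cask* ranged from 1.57 to 1.96 in homozygous against WT (adjusted p from 0.0397 to 0.0794, exact permutation test), from 0.71 to 1.03 in heterozygous against WT, and from 0.71 to 1.05 between the mutants. The ratio to *Tspyl2* ranged from 1.47 to 1.87, from 0.69 to 1.00 and from 0.63 to 0.99 in the same order. The *Lin7b* share in homozygous against WT ranged from -1.09 to -0.75 points, the *Lin7c* share from -0.69 to 0.49 points in that comparison and from -0.10 to 1.05 points in heterozygous against WT, and the *Lin7a* share from -0.26 to 0.55 points in the latter.

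Of all genes, 12 were called in homozygous against WT mice when these 2 genotypes were fitted alone and 42 with the empirical null, and 6 between the mutants with the neuron markers as a covariate, in place of 21 and 13. With 1 embryo left out, the counts ranged from 12 to 22 and from 6 to 17, and from 10 to 24 between the sexes.

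Same-numbered embryos are different animals that share their number and sex, and their deviations from the genotype means correlated with r from 0.0238 to 0.506 between WT and homozygous mice, so the numbers were not taken as pairs. When a replicate block was added to the model, 16 genes were called in homozygous against WT, 0 in heterozygous against WT and 2 between the mutants, and no call of a member changed. The number fixes the sex, so that the sexes could not be fitted with the block.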
